A study of Mus musculus with 2 samples.

Results

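The miR-148 and miR-152 family consists of the mouse miRNA genes Mir148a, Mir148b and Mir152. Its reads were the sequenced tags that matched 1 of these 3 hairpins perfectly over their whole length, out of 1174 miRNA hairpins searched. In all, 37 distinct tags of the 8598 that matched any hairpin belonged to the family, and 5 of its arms had reads. Small RNA was sequenced from the established mouse embryonic stem cell line J1 (J1 mESCs), with the question of which miRNAs respond when the MEK/ERK pathway is blocked. The cells of both groups were kept without feeders on gelatin in medium with knockout serum replacement and 1000 U/mL LIF, a cytokine that maintains self-renewal. The control group received the solvent DMSO for 24 h, and the other group received 1 μM PD0325901 (PD), an inhibitor of MEK that prevents the activation of ERK, for 24 h. Each treatment was represented by 1 library, made from the combined RNA of 3 experiments, and there were no replicates. Every test below thus set 1 library against the other and takes account of the sampling of reads alone.

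miRNAs are cut from hairpin precursors by Drosha and Dicer, and 1 arm of the hairpin, 5p or 3p, usually guides the silencing complex while the other is degraded. The seed, bases 2 to 8 from the 5′ end, decides most of the pairing with target mRNAs. The miR-148/152 family acts through its 3p arms, which share a seed. Known targets include the DNA methyltransferase Dnmt1 and the cholesterol exporter gene Abca1, and the family is often reduced in tumours.

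The sequences are shown because all 3 active members can pair with the same sites and differ only behind the seed. The most frequent tag of each 3p arm is given 5′ to 3′ with the seed in capitals:
miR-148a-3p: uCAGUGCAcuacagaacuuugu
miR-148b-3p: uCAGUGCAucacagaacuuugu
miR-152-3p: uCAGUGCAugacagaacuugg
These were the only 3 detected miRNAs with this seed. Counted from the 5′ end, and with the base of the miRNA named first written first, miR-148a-3p differed from miR-148b-3p by C9U and U10C, and from miR-152-3p by C9U, U10G and U20G. miR-148b-3p differed from miR-152-3p by C10G and U20G. The 5p arms with reads shared a seed of their own (capitals):
miR-148a-5p: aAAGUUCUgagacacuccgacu
miR-148b-5p: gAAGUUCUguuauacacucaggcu
All 5 tags were identical to the mature sequences in RefSeq on GRCm38.p6.

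The hairpins show where the arms lie, with the sequenced mature miRNAs in capitals:
Mir148a: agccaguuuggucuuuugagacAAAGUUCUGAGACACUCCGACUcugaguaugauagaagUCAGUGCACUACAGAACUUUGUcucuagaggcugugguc
Mir148b: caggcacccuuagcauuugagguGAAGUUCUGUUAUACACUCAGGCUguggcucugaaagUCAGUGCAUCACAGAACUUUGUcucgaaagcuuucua
Mir152: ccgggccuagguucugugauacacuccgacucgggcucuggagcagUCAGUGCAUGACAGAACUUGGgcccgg
On GRCm38, Mir148a lies on the minus strand at chr6:51269812-51269910, in no annotated host gene, 13622 bp from the lincRNA gene Gm32479. Mir148b lies on the plus strand at chr15:103285125-103285221, in an intron of all 4 annotated transcripts of Copz1. Mir152 lies on the plus strand at chr11:96850393-96850465, in an intron of 3 of the 5 transcripts of Copz2 and in an exon of none. Copz1 and Copz2 encode paralogous subunits of the COPI vesicle coat, so that both of these members sit within genes of one family. All 37 tags matched a single place in a single hairpin, and 0 of them occurred in any other GENCODE transcript on either strand. The rest of the genome was not searched.

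Clean reads numbered 18870345 in the control and 20944808 after PD treatment, and 3 reads therefore corresponded to 0.159 and 0.143 RPM (reads per 1000000 clean reads). Hairpin-matching reads made up 11.6% of the control and 10.1% of the PD library, and reads of 28 to 32 nt, longer than miRNAs, 7.11% and 17.0%. Of 402 seeds among detected miRNAs, the one of miR-290a-5p, miR-292-5p and miR-293-5p, products of the miR-290 cluster that marks mouse embryonic stem cells, ranked 1 in both libraries. A miRNA was called detected from 1 RPM upwards in the control or in PD, which gave 530. Their median fold change, PD over control, was 0.885 (log2 -0.18), so that the middle of all miRNAs lay below 1. A miRNA was called changed at 1.5-fold or more in either direction, the criterion of the study.

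In J1 mESCs the family was present at a moderate level, almost wholly as 3p arms. miR-152-3p had 1485 reads in the control and 1650 in the PD library, which is 78.7 RPM (95% Poisson interval 74.7 to 82.8) and 78.8 RPM (75.02 to 82.67). miR-148b-3p had 1455 and 1031 reads, or 77.1 RPM (73.2 to 81.2) and 49.2 RPM (46.3 to 52.3). miR-148a-3p had 650 and 589 reads, or 34.4 RPM (31.8 to 37.2) and 28.1 RPM (25.9 to 30.5). In the control, miR-152-3p and miR-148b-3p lay within each other's intervals, and miR-148a-3p was lower than both. In the PD library the 3 members were apart, in the order miR-152-3p, miR-148b-3p and miR-148a-3p. Both comparisons cover matching reads of all lengths. With reads of 21 nt or more only, the control levels were 74.8, 30.9 and 30.15 RPM in that order. The PD levels were then 76.0, 32.4 and 26.4 RPM. Reads with added bases that do not match the hairpin were left out. In the same order, these had 34.9, 8.37 and 0.901 RPM in the control and 38.6, 9.84 and 1.62 RPM in PD. Each read counted once whatever its length, shortened forms included, and the levels were not divided by length. How well adapters joined each sequence was not tested. miR-148b-5p followed with 80 and 93 reads, or 4.24 RPM (3.36 to 5.28) and 4.44 RPM (3.58 to 5.44). miR-148a-5p had 3 reads in each library and was not detected. miR-152-5p had 0 reads in either, which allows up to 0.202% of the Mir152 arm reads in the control and 0.182% in the PD library.

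**Figure D1:**
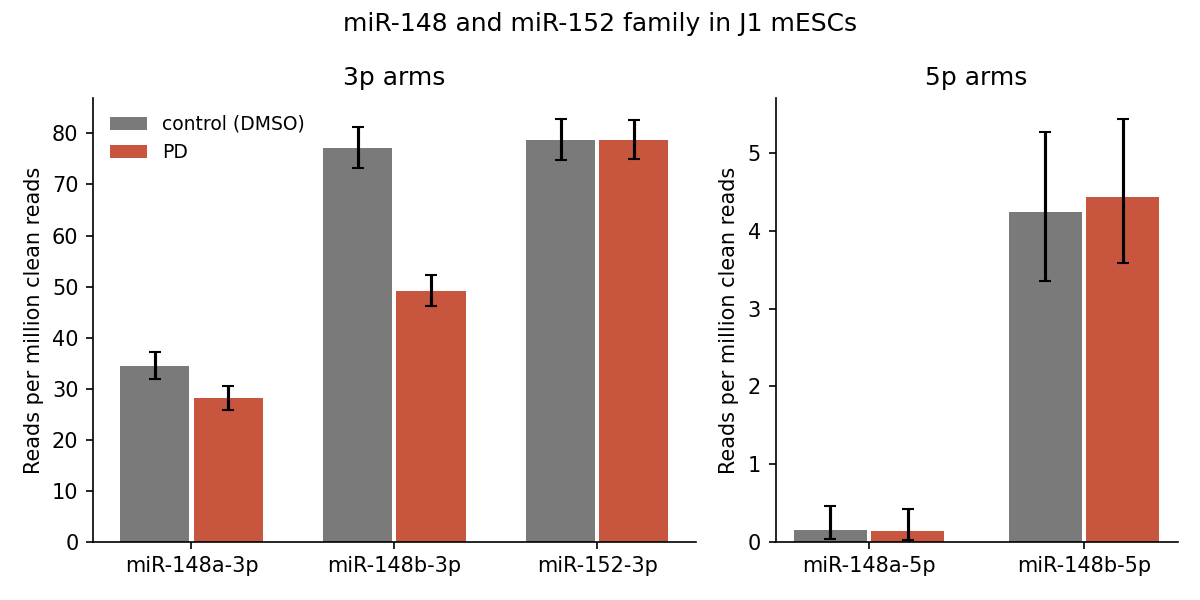
RPM of the arms of the family (vertical axes, separate scales for 3p and 5p arms) in the control and the PD library, 1 library each. Error bars are 95% Poisson intervals of the read counts. miR-148b-3p is the arm whose intervals lie apart most, at 77.1 and 49.2 RPM, while those of miR-152-3p overlap.

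Summed over the 3 members, the shared seed was carried by 3590 reads in the control and 3270 in the PD library, or 190 and 156 RPM. The seed ranked 62 of 402 in the control and 65 in the PD library. The summed fold change was 0.821 (95% Clopper-Pearson interval 0.782 to 0.861), short of 1.5-fold. Over reads of all lengths, the makeup of this pool differed between the libraries. miR-152-3p supplied 41.4% (Wilson 95% interval 39.8 to 43.0) of it in the control and 50.5% (48.7 to 52.2) in the PD library. miR-148b-3p supplied 40.5% (38.9 to 42.1) and 31.5% (29.96 to 33.14). The share of miR-148a-3p was 18.11% and 18.01%. Among reads of 21 nt or more, miR-152-3p had 1411 of 2563 in the control and 1591 of 2823 in PD. Of the same totals, miR-148b-3p had 583 and 679, and miR-148a-3p 569 and 553.

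The question of the design was whether PD treatment was accompanied by a difference in each miRNA. Of the 4 detected members, 1 was called, miR-148b-3p. It fell to 0.638 of the control level (0.589 to 0.692; exact binomial test, Benjamini-Hochberg adjusted p = 1.03e-27), and ranked 60 from the lowest of 530. The upper end of this interval is less than a 1.5-fold reduction. In RNA of whole cultures, less miRNA per cell and fewer cells with it cannot be told apart. Among all 530 detected miRNAs, 71 (13.4%) were 1.5-fold or more lower in PD and 32 (6.04%) higher. miR-148a-3p stood at 0.816 (0.729 to 0.914; exact binomial test, adjusted p = 0.00119), below the 1.5-fold criterion. miR-152-3p stood at 1.00 (0.933 to 1.07; exact binomial test, adjusted p = 1), and miR-148b-5p at 1.05 (0.768 to 1.43; exact binomial test, adjusted p = 0.890). An adjusted p under 0.05 was thus found for 2 of the 4 members, beside 246 of 530 miRNAs (46.4%). The call of miR-148b-3p depended on the denominator. Relative to the reads that matched miRNA hairpins its fold change was 0.732, and relative to clean reads of 20 to 24 nt it was 0.773, both within 1.5-fold. With the hairpin reads as denominator, 30 miRNAs were lower and 52 higher at 1.5-fold.

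**Figure D2:**
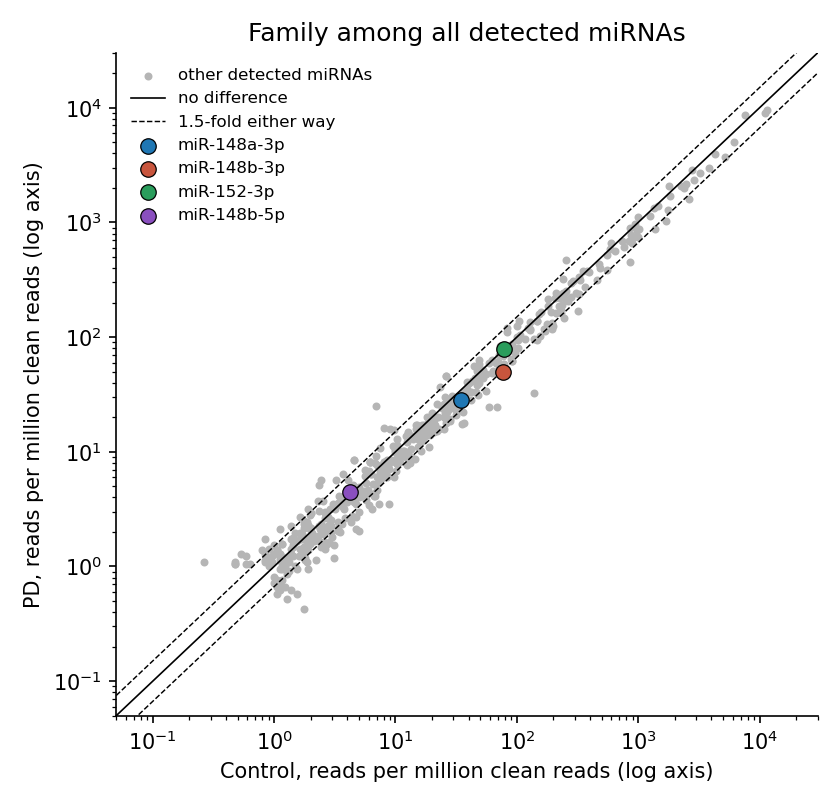
Each point is 1 of the 530 detected miRNAs, with its level in the control library on the horizontal and in the PD library on the vertical axis, both in RPM on log axes. Large points are the 4 detected arms of the family. miR-148b-3p lies just outside the lower dashed 1.5-fold line, and miR-152-3p lies on the line of no difference.

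The members were also compared with each other, since the library totals cancel in such a ratio. The fold change of miR-148b-3p was 0.638 times that of miR-152-3p (0.573 to 0.710; Fisher's exact test, p adjusted over the 3 pairs = 2.7e-16). It was 0.782 times that of miR-148a-3p (0.680 to 0.899; Fisher's exact test, adjusted p = 0.00068). The fold change of miR-148a-3p was 0.816 times that of miR-152-3p (0.713 to 0.932; Fisher's exact test, adjusted p = 0.0025). Counted over all their reads, the 3 members with the same seed thus differed from one another in all 3 pairs.

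The reads of the 3 arms were next divided by length. miR-148b-3p was sequenced in a pair of main forms that began at the same base and ended differently. Their sequences, with the seed in capitals, are shown because the libraries differed in the shorter one and not detectably in the longer:
miR-148b-3p, 22 nt: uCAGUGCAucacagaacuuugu
miR-148b-3p, 18 nt: uCAGUGCAucacagaacu
The 22 nt form, the mature miRNA, had 537 control reads and 638 PD reads, a fold change of 1.07 (0.953 to 1.20). The 18 nt form lacks the 4 last bases and had 632 control reads and 234 PD reads, a fold change of 0.334 (0.286 to 0.388). In the control the shortened form was thus the more frequent of the pair, and in the PD library the mature form was. A 20 nt form had 199 and 103 reads, and forms of 19 and 21 nt had 15 to 45 reads in each library.

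**Figure D3:**
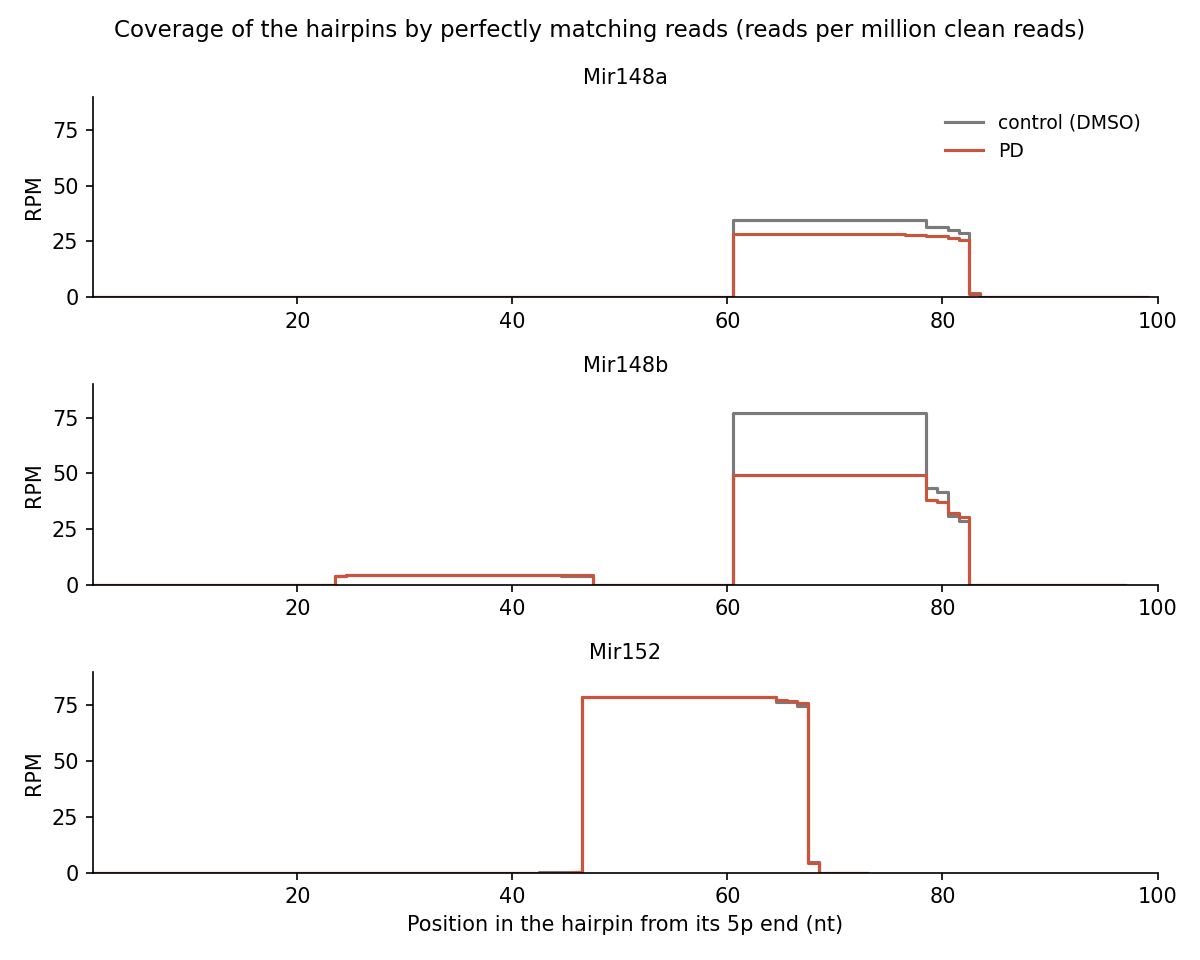
Depth of perfectly matching reads (RPM, vertical axes) at each position of the 3 hairpins, counted from the 5p end, in the control and the PD library. The 3p arms begin at 1 position in both libraries, and over the last 4 bases of miR-148b-3p the lines of the libraries come together, while the 5p arm of Mir148b is the only other arm that rises visibly above 0.

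Taken by class, the difference of miR-148b-3p lay in its short reads. Reads of 18 to 20 nt numbered 872 in the control and 352 in the PD library, or 46.2 and 16.8 RPM, with a fold change of 0.364 (0.320 to 0.412). Reads of 21 nt or more numbered 583 and 679, or 30.9 and 32.4 RPM, with a fold change of 1.05 (0.938 to 1.17). Short reads thus made up 59.9% (57.4 to 62.4) of miR-148b-3p in the control and 34.1% (31.3 to 37.1) in the PD library. The fold change of the short reads was 0.347 times that of the long ones (0.292 to 0.411; Fisher's exact test, p adjusted over the 3 members = 1.1e-36). Counting reads of 21 nt or more alone had been planned, while the values of 18 to 20 nt alone and the test between the classes were added after the counts were seen.

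The short reads of miR-148a-3p, far fewer, were also lower relative to its long reads. It had 81 short reads in the control and 36 in PD, a fold change of 0.400 (0.263 to 0.600), and 569 and 553 long reads, a fold change of 0.876 (0.777 to 0.986). The short reads' fold change was 0.457 times that of the long ones (0.295 to 0.699; Fisher's exact test, adjusted p = 0.00020). miR-152-3p had few short reads, 74 and 59, with a fold change of 0.718 (0.501 to 1.03). Its 1411 and 1591 long reads stood at 1.02 (0.945 to 1.09), and the ratio of the classes, 0.707 (0.490 to 1.02), did not pass the test (Fisher's exact test, adjusted p = 0.062). Without tags of a single read, the odds of a long read were 1.44 times as high in PD (0.998 to 2.08, Fisher's exact test, unadjusted p = 0.0497), against 1.41 times with all tags. Short reads were 12.5% of miR-148a-3p and 4.98% of miR-152-3p in the control, and 6.11% and 3.58% in the PD library.

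**Figure D4:**
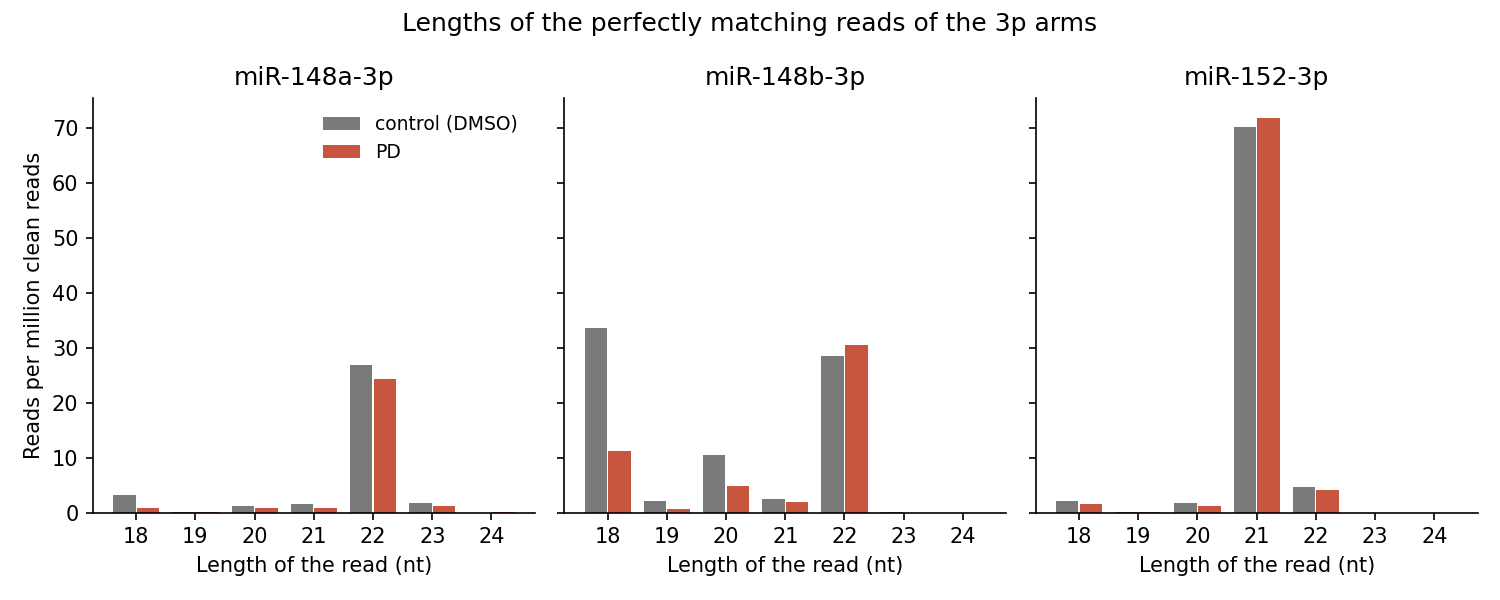
RPM (vertical axis) of each length from 18 to 24 nt (horizontal axis) for the 3p arms in the control and the PD library. For miR-148b-3p the bar at 18 nt is lower in PD and the bar at 22 nt is not, whereas miR-152-3p is nearly all 21 nt and of like height in both libraries.

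Counted over long reads only, no member passed 1.5-fold, and the family as a whole stood at 0.992 (0.940 to 1.05) with 2563 and 2823 reads. Among the 508 miRNAs with at least 1 RPM of such reads, 47 (9.25%) were 1.5-fold or more lower and 41 (8.07%) higher. Neither did the pairs of members pass the test. The ratio of miR-148b-3p to miR-152-3p was 1.03 (0.903 to 1.18; Fisher's exact test, adjusted p = 0.64), that of miR-148b-3p to miR-148a-3p was 1.20 (1.02 to 1.41; Fisher's exact test, adjusted p = 0.053), and that of miR-148a-3p to miR-152-3p was 0.862 (0.750 to 0.991; Fisher's exact test, adjusted p = 0.053). Over short reads only, all 3 members were below 1, and 2 of them, miR-148a-3p and miR-148b-3p, were 1.5-fold or more lower, beside 144 of 240 miRNAs (60%) that were lower and 7 (2.92%) that were higher.

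Short reads were lower in PD across the hairpins and not in the family alone. All other hairpin-matching reads of 18 to 20 nt had a fold change of 0.495, and those of 21 nt or more one of 0.912. Clean reads of 18 to 20 nt of any origin had one of 0.874. Of 180 miRNAs with at least 20 reads of each class in each library, 143 had a lower fold change for the short class, with a median ratio of 0.669 (quartiles 0.463 and 0.891). In this order miR-148b-3p ranked 7 from the lowest, miR-148a-3p 40 and miR-152-3p 97. miR-148b-3p was also rich in short reads to begin with. Of 266 miRNAs with at least 200 control reads, it ranked 14 by the share of short reads, with a median share of 4.53% over all of them, while miR-148a-3p ranked 72 and miR-152-3p 129. Whether the short reads arose in the cells or during extraction, gel purification or library preparation was not tested.

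**Figure D5:**
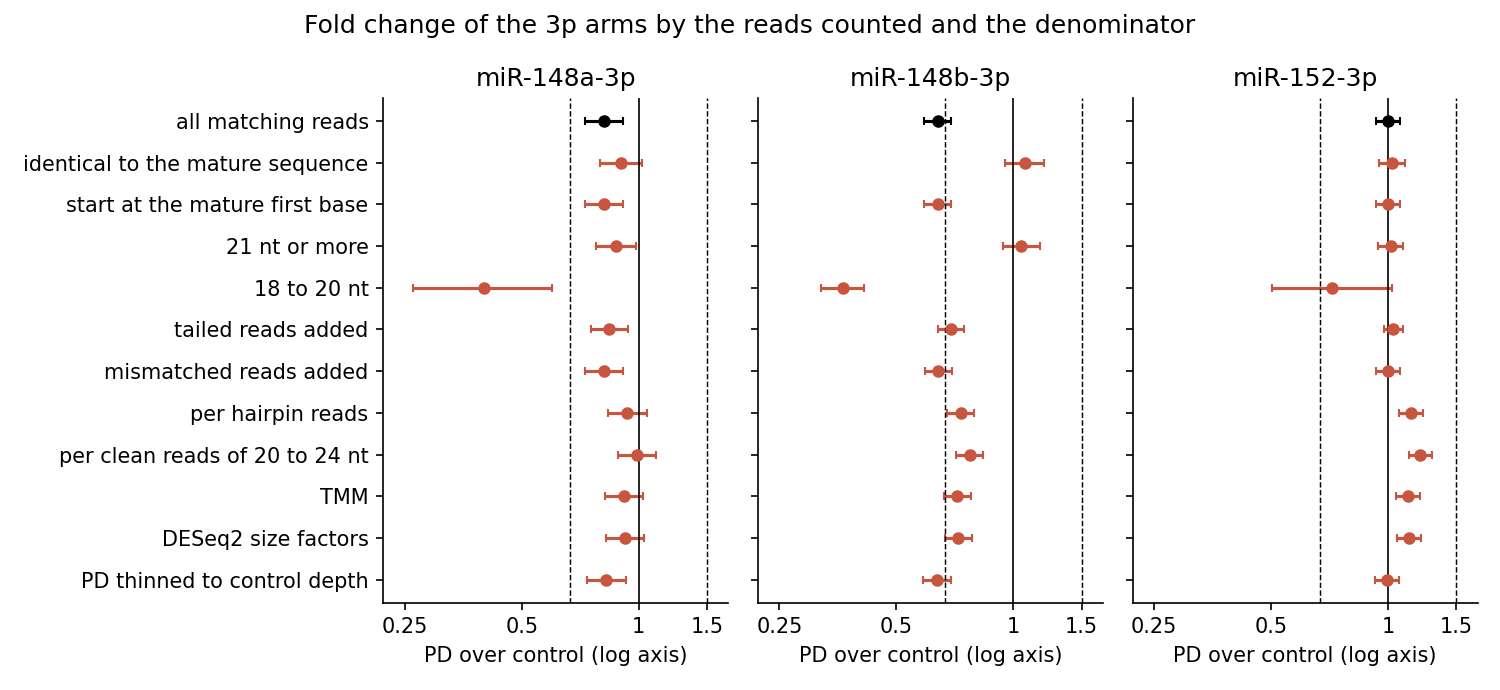
Fold change of the 3 active members, PD over control (horizontal log axis), under each way of choosing the reads and the denominator (rows), with 95% intervals. The solid line marks no difference and the dashed lines 1.5-fold. miR-148b-3p moves from 0.364 for reads of 18 to 20 nt to 1.07 for reads identical to the mature sequence, while miR-152-3p stays within 1.5-fold in all rows and miR-148a-3p in all but that of 18 to 20 nt.

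The 5′ ends of the 3p arms, which set the seed, were nearly uniform. The share of reads that began at the first base of the mature miRNA was 99.9% and 99.7% for miR-148a-3p, 99.9% and 100% for miR-148b-3p, and 99.7% and 99.8% for miR-152-3p, control before PD. None of these shares differed between the libraries by Fisher's exact test (adjusted p between 0.78 and 1). The 3′ ends carried the variation. The share identical to the mature sequence was 36.9% (34.5 to 39.4) and 61.9% (58.9 to 64.8) for miR-148b-3p (Fisher's exact test, adjusted p = 8.0e-34). It was 78.0% (74.7 to 81.0) and 86.1% (83.0 to 88.6) for miR-148a-3p (Fisher's exact test, adjusted p = 0.00067). For miR-152-3p it was 89.1% and 91.2% (Fisher's exact test, adjusted p = 0.098).

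Bases added after the end of the hairpin-matched part, known as untemplated tails and made in cells by terminal nucleotidyl transferases, were most frequent on miR-152-3p. Its most frequent tailed form is printed with the added base in capitals, because it was the most frequent tailed form in the family:
miR-152-3p with 1 added base: ucagugcaugacagaacuuggU
This tag had 526 reads in the control and 628 in the PD library, or 27.87 and 29.98 RPM. In all, 30.7% (28.8 to 32.7) of the miR-152-3p reads in the control and 32.9% (31.0 to 34.7) in the PD library had a tail of 1 to 3 nt, nearly all of them of U only (29.4% and 30.5%). Over all hairpins, the tailed share was 10.7% and 11.5%. miR-148b-3p had tails in 9.79% (8.44 to 11.3) and 16.7% (14.7 to 18.8) of reads, with 97 and 120 reads of its most frequent tailed form:
miR-148b-3p with 1 added base: ucagugcaucacagaacuuuguU
miR-148a-3p had tails in 2.55% (1.60 to 4.04) and 5.46% (3.93 to 7.53) of reads, mostly of A only. The tailed share was higher in PD for miR-148b-3p (Fisher's exact test, adjusted p = 3.0e-07) and for miR-148a-3p (Fisher's exact test, adjusted p = 0.021), but the call was not made for miR-152-3p (Fisher's exact test, adjusted p = 0.18). Tails of A only were higher in PD for miR-152-3p, with 14 reads (0.653%) and 40 reads (1.63%, Fisher's exact test, p adjusted over 6 tests of A and U tails = 0.0069), also with a matched part of 21 nt or more (adjusted p = 0.014). For miR-148b-3p they made up 2.23% and 3.80% (Fisher's exact test, adjusted p = 0.036) and for miR-148a-3p 2.10% and 4.17% (Fisher's exact test, adjusted p = 0.055). With a matched part of 21 nt or more, A tails of miR-148b-3p made up 4.87% and 5.34% (Fisher's exact test, adjusted p = 0.73). Its U tails made up 6.88% and 11.2% over all reads (Fisher's exact test, adjusted p = 0.00034). At 21 nt or more, these were 14.75% and 15.55% (Fisher's exact test, adjusted p = 0.73). U tails of miR-148a-3p and miR-152-3p did not pass over all reads (Fisher's exact test, adjusted p = 0.24 and 0.44). Tests by tail base were not among those planned, and A tails over all hairpins were not counted. When only reads with a matched part of 21 nt or more were counted, miR-148b-3p had tails in 21.1% and 22.9% of reads (Fisher's exact test, adjusted p = 0.40) and miR-148a-3p in 2.74% and 5.31% (Fisher's exact test, adjusted p = 0.078). Both calls were lost without the short reads, where the adjustment was over the 3 members only. The shares of miR-148b-3p then lay close together, while those of miR-148a-3p were nearly as far apart as over all reads.

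The use of the arms was compared within each hairpin. The 5p arm of Mir148b supplied 5.21% (4.21 to 6.44) of the arm reads in the control and 8.27% (6.80 to 10.03) in the PD library. The fold change of miR-148b-5p was 1.64 times that of miR-148b-3p (1.19 to 2.27; Fisher's exact test, adjusted p = 0.0037). With reads of 21 nt or more this ratio was 0.998 (Fisher's exact test, adjusted p = 1), and the call was lost. The 5p share of Mir148a was 0.459% (0.156 to 1.34) and 0.507% (0.173 to 1.48), from 3 reads in each library. The 3p arm dominated all 3 hairpins in both libraries.

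The miRNAs most like each active member were the 2 nearest in log2 RPM over the 2 libraries, among 472 candidates. For miR-148b-3p these were miR-337-5p, with 77.2 and 52.4 RPM, and miR-423-3p, with 73.7 and 56.0 RPM. For miR-148a-3p they were miR-129-2-3p, with 33.0 and 30.8 RPM, and miR-106a-5p, with 31.1 and 26.1 RPM. For miR-152-3p they were miR-15b-5p, with 81.7 and 80.1 RPM, and miR-877-5p, with 85.4 and 78.6 RPM. The 6 neighbours had fold changes of 0.679 to 0.981, which the choice by level in both libraries sets close to those of the members.

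A pair of families that are alike in seed or in targets were set beside it. The miR-130 and miR-301 family has the seed AGUGCAA, which is that of the miR-148/152 family moved by 1 base. Its 4 detected members had 905 RPM together in the control and 791 in PD, a fold change of 0.874 (0.856 to 0.893). With reads of 21 nt or more it was on the other side of 1, at 1.04 (1.01 to 1.06). The summed miR-148/152 fold change was 0.939 times as large (0.891 to 0.989; Fisher's exact test, p = 0.017, adjusted p = 0.034), and 0.957 times (0.902 to 1.02; Fisher's exact test, p = 0.14, adjusted p = 0.19) with reads of 21 nt or more. The miR-29 family, which also targets DNA methyltransferases, had 342 and 273 RPM, a fold change of 0.799 (0.770 to 0.828). Here the ratio was 1.03 (0.968 to 1.09; Fisher's exact test, p = 0.37, adjusted p = 0.37) over all reads and 1.23 (1.15 to 1.31; Fisher's exact test, p = 2.9e-10, adjusted p = 1.2e-09) over reads of 21 nt or more, where miR-29 stood at 0.807 and the miR-148/152 family at 0.992. These 4 p-values were adjusted together.

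The shared seed pairs with the 7 bases TGCACTG in an mRNA. This motif was searched on the mRNA strand of 5 genes listed as known or candidate targets, 1 transcript per gene, and is shown in capitals with 10 bases on either side for the DNA methyltransferases:
Dnmt1, 3′ UTR, chr9:20907492-20907498, minus strand, exon 39: gagccccacgTGCACTGatgtttttaa
Dnmt3a, coding sequence, chr12:3906867-3906873, plus strand, exon 22: catcctgtggTGCACTGaaatggaaag
Dnmt3b, coding sequence, chr2:153684461-153684467, plus strand, exon 23: cgttttgtggTGCACTGagctcgaaag
Dnmt1 copies methylation after replication, and Dnmt3a and Dnmt3b set new methylation. Dnmt1 had its match in the 3′ UTR, the region where miRNAs mostly act, and Dnmt3a and Dnmt3b had theirs in the coding sequence and 0 in the 3′ UTR. In the 3′ UTR, Abca1 had 2 matches and the melanocyte regulator gene Mitf had 1. Of 21020 protein-coding genes, 12.1% had the motif in the 3′ UTR and 14.7% in the coding sequence. The site of miR-130 and miR-301, TTGCACT, overlaps it by 6 bases, and 2 of the 6 matches held both. These matches describe the letters of the transcripts, and the levels of these mRNAs were not analysed here.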

How the data were processed

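Small RNA of J1 mESCs was analysed, with 1 library per treatment. The authors gel-purified RNA of 18 to 30 nt according to the paper (the labels name an mRNA kit), filtered out poor reads, adapters, contaminants and tags shorter than 18 nt, and deposited raw read counts per distinct tag. The submitters' notes name build mm9, but the tags carry no coordinates. A last line without a tag, the total, was left out.

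Tags were matched with Python 3.11.15 to GENCODE M21 hairpins, whose arms were set by folding with ViennaRNA 2.7.2. The most frequent tag of an arm was its mature miRNA, and a minimum overlap of 16 nt with it was set for counted tags. The exact binomial test (2-sided, expected share from the library totals) and Fisher's exact test (2-sided) came from SciPy 1.17.1, with Benjamini-Hochberg adjustment, and with the intervals cover counting error only. edgeR's quasi-likelihood test needs replicates and was not run. edgeR 4.0.16 and DESeq2 1.42.0 gave other scalings, and edgeR's exact test used assumed biological coefficients of variation (BCV) of 0.1 and 0.2. On simulated data, 174 of 200 miRNAs changed 2-fold were recovered by adjusted p and 1.5-fold, among them 107 of 107 at 10 RPM or more. Of 242 unchanged ones, 8 passed 1.5-fold, whatever their p. The simulated counts varied by the sampling of reads alone, without differences between cultures or shifts in read length. They thus give no rate of false calls for the real libraries. Members and lists were chosen with earlier results of these data known. Named were all arms of the family, the 2 nearest miRNAs to each 3p arm (at least 80% unshared reads), 2 compared families and 5 target genes. A further listed target is not reported here.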

Additional observations from a re-analysis of the deposited data

How the results depend on the processing

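Of 158 alternative values, 111 kept their direction and call or, for numbers of miRNAs, stayed within 1.5 times the reported number. Some of these could not differ. The mature sequences of the family were the same in RefSeq, and a stricter criterion can only remove a call. For miR-148b-3p the fold change reversed to 1.07 with tags identical to the mature sequence and to 1.05 with tags of 21 nt or more. It was short of 1.5-fold at 0.691 with tailed tags added, 0.732 relative to hairpin reads, 0.773 relative to clean reads of 20 to 24 nt, 0.718 with TMM, 0.722 with DESeq2 size factors and 0.700 relative to hairpin reads of 21 nt or more (chosen after seeing the data). At 0.638 it was not called with a 2-fold threshold or with the exact test of edgeR at a BCV of 0.2 (adjusted p = 1), and it was called at a BCV of 0.1 (adjusted p = 0.036). These scalings moved the median log2 fold change of all miRNAs from -0.18 to between -0.04 and 0.10. With tags of 18 to 20 nt, also chosen after seeing the data, the fold changes were 0.392 for the summed 3p arms, 0.400 for miR-148a-3p and 0.718 for miR-152-3p. The summed arms reversed to 1.01 with identical tags. On a PD library thinned to the depth of the control, miR-152-3p was 0.995 and miR-148b-5p 0.963.

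The ratio of miR-148b-3p to miR-152-3p reversed to 1.04 with identical tags and 1.03 with tags of 21 nt or more, that of miR-148b-3p to miR-148a-3p to 1.19 and 1.20, and that of miR-148a-3p to miR-152-3p was 0.880 and 0.862 and lost its call. With 18 to 20 nt, the last 2 ratios were 0.908 and 0.557. The ratio of miR-148b-5p to miR-148b-3p was 1.09 with identical tags and 0.998 with 21 nt or more.

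The numbers of miRNAs lower and higher in PD were 71 and 32 of 530 as reported. Out of the same 530, they were 30 and 52 relative to hairpin reads and 23 and 64 relative to clean reads of 20 to 24 nt. They were 34 and 46 with TMM, 32 and 46 with DESeq2 size factors, and 43 and 40 relative to long hairpin reads. Stricter criteria gave 29 and 12 with a BCV of 0.1, 1 and 1 with 0.2, and 16 and 11 at 2-fold. Other settings altered the total as well. The numbers were 144 and 7 of 240 with 18 to 20 nt, and 47 and 41 of 508 with 21 nt or more. Without a filter they were 300 and 272 of 1184, and with at least 10 RPM 27 and 8 of 281. Causes of these shifts were not tested. No paired analysis was possible because each treatment had 1 library, and for the same reason no replicate could be left out. The variation between cultures is not covered by any value given. At 3 reads a library, the arm miR-148a-5p lay below the 1 RPM set for detection.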
